A study of Mus musculus with 8 samples.

Results

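DNA methylation was examined at 10 mouse genes of Fc receptors and complement receptors in resting B cells and naive CD4+ T cells. The set holds 7 genes used by B cells (Fcrla, Fcrlb, Fcrl1, Fcrl5, Fcgr2b, Fcer2a and Cr2) and 3 genes of the myeloid Fc receptors (Fcgr3, Fcgr4 and Fcer1g), out of 21755 protein-coding genes on the autosomes and the X chromosome. Membership was by gene identity, with no methylation threshold, although the genes were chosen with earlier results of these data known. Each gene was taken with 10 kb on either side of its body in GRCm38, the build also known as mm10. These windows held 4013 CpGs read in every library, 2543 at the B cell genes and 1470 at the myeloid genes, of 18684786 such CpGs in all.

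The cells came from spleens of C57BL/6J mice aged 6 to 8 weeks that carried no engineered allele or treatment in the labels. B cells were selected as CD43-, and T cells were sorted as CD4+ and CD62L high after depletion of other lineages. Females and males were kept apart, which gave 4 groups, 1 for each combination of sex and cell type. Each group has 2 samples in the labels and 1 deposited set of CpG calls, so each cell type was represented by 2 libraries, and the study's methods describe pooled cells of several mice behind a sample. Oxidative whole-genome bisulfite sequencing was used, in which 5-hydroxymethylcytosine is oxidised before bisulfite conversion so that 5-methylcytosine alone is read as methylated.

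Fc receptors bind the constant part of antibodies and pass the signal of an immune complex to the cell that carries them. B cells rely on the inhibitory receptor encoded by Fcgr2b, on the low-affinity IgE receptor CD23 (Fcer2a), on the complement receptors CD21 and CD35 (both from Cr2) and on Fc receptor-like proteins, whereas macrophages, neutrophils and natural killer cells use activating receptors such as those of Fcgr3 and Fcgr4, which signal through the common γ chain encoded by Fcer1g. Low methylation around a start site often accompanies an active gene in these lineages, although methylation alone does not give the expression of a gene.

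Sequencing depth was similar among libraries. The 4 sets of calls summed 280919817 to 354634149 reads at CpGs, with a median of 14 to 17 reads per autosomal CpG and of 13 to 23 across the windows of the 10 genes. Of all reads at CpGs, 78.7% to 81.1% were methylated. The libraries matched their labels at marker promoters (within 1 kb of the gene start): 5 of 5 B cell markers were lower in B cells (8.36% to 28.7% in B libraries, 37.9% to 95.2% in T libraries) and 6 of 6 T cell markers were lower in T cells, where T libraries lay between 0.566% and 9.87% and B libraries between 70.2% and 94.9%. None of 6 myeloid marker promoters differed by the call rule of the next paragraph, by edgeR or by limma, although 2 passed the adjusted p at smaller differences (Lyz2 -16.8 points, Cd68 12.7 points). These 6 promoters spanned 11.5% to 91.5% over the 4 libraries, and of 4 natural killer markers Nkg7 was called and Prf1 passed the adjusted p at 12.8 points. Methylated reads on mitochondrial DNA, a measure of incomplete conversion and miscalls, made up 0.271% and 0.727% of the female and male B libraries and 0.0733% and 0.0709% of the T libraries, which is under the differences called here.

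Levels are the percentage of methylated reads over all CpGs of a region, and differences are in percentage points, B cells minus T cells, averaged over the sexes. Where a pair of levels is given for a cell type, the female library comes before the male. Brackets hold 95% Wilson intervals, which cover counting error only. A promoter or a 1-kb tile was called when its adjusted p in the edgeR quasi-likelihood test was under 0.05 and its difference was at least 20 points. Intermediate levels in bulk DNA can come from a fraction of cells or from a fraction of alleles in each cell, and these cannot be told apart here.

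Sequences of 300 bases are shown for 4 genes, those with the largest and the smallest promoter difference around the GENCODE start within each set. For Fcgr3 the printed sequence is at a RefSeq start, 5532 bases inside the GENCODE gene, around which the difference was larger. They are the RefSeq promoters of Fcrla (chr1:170927534-170927833, minus strand), Fcrlb (chr1:170912892-170913191, minus strand), Fcgr3 (chr1:171059354-171059653, minus strand) and Fcer1g (chr1:171234300-171234599, minus strand) in GRCm38.p6, from 250 bases before to 50 bases after the start, written 5′ to 3′ along the gene with CG dinucleotides in capitals.
Fcrla: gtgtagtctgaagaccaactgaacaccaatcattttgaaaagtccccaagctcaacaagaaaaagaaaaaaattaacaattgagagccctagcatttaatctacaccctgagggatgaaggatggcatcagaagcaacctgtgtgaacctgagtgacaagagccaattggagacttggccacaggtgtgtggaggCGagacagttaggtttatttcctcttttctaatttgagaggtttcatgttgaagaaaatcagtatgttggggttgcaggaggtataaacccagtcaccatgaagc
Fcrlb: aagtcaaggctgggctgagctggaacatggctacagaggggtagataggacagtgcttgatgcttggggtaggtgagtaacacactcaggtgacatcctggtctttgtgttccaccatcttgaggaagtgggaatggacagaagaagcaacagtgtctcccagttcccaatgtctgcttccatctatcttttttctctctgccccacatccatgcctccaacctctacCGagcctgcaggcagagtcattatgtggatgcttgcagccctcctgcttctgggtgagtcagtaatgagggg
Fcgr3: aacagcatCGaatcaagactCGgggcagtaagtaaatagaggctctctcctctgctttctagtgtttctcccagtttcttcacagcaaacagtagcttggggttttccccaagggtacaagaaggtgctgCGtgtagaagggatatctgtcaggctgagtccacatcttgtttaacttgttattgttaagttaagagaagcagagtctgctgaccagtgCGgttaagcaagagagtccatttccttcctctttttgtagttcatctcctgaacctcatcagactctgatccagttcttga
Fcer1g: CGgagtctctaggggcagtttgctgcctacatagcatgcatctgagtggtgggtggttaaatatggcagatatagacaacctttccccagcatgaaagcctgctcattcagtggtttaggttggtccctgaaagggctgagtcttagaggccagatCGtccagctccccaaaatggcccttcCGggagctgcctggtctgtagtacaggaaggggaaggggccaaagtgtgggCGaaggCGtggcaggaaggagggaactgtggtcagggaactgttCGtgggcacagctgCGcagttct

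Another stretch was taken from inside a gene, from the tile with the largest difference toward low levels in T cells. It is centred on the 300 bases with the most CpGs in that tile, 9 of its 18, whatever their levels. It lies in an intron of Fcgr3 by GENCODE (chr1:171060419-171060718, minus strand), again with CG in capitals.
Fcgr3 intron: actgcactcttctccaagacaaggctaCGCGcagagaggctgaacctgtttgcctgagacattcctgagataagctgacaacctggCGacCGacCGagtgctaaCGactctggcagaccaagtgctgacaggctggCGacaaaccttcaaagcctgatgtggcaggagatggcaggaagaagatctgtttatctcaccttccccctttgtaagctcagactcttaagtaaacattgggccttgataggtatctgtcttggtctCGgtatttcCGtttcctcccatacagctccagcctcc

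Fcrla and Fcer2a were the genes called at their promoters, taken as 1 kb on either side of the GENCODE start. Fcrla encodes an intracellular Fc receptor-like protein that binds immunoglobulin inside B cells. Its promoter (chromosome 1, 170926583 to 170928583; 17 CpGs, 221 to 348 reads) was methylated at 24.2% [19.7 to 29.3] in B cells of females and 19.5% [14.8 to 25.2] in those of males. In T cells it stood at 91.1% [87.6 to 93.7] in females and 90.8% [87.1 to 93.6] in males. Both B libraries were far below both T libraries, and the difference of -69.1 points had an adjusted p of 1.98e-76. The CG printed above at base 196 of the Fcrla sequence, 55 bases before the start, was methylated in 1 of 16 and 0 of 17 reads in female and male B cells, against 9 of 13 and 12 of 20 reads in T cells. A count of 0 of 17 reads allows a level of up to 17.6%, taking 3 methylated reads as the limit of a count of 0 (Wilson upper limit 18.4%).

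The low methylation at Fcrla in B cells covered the start and the sequence before it. In the tile that holds the start (chromosome 1, 170927001 to 170928000; 13 CpGs, touching an exon), B cells had 16.2% [12.1 to 21.5] and 12.5% [8.06 to 18.9] and T cells 90.7% [86.7 to 93.5] and 89.4% [84.7 to 92.9], a difference of -75.7 points (adjusted p = 1.68e-69). The next tile upstream differed by -51.2 points (adjusted p = 9.46e-17), with B cells at 33.3% and 24.5% and T cells at 79.2% and 81.0%. A further 3 intergenic tiles upstream were lower in B cells by smaller amounts: -24.2 points at 170929001, -21.9 at 170930001 and -28.7 at 170932001. Within the stretch searched, that of Fcrlb to Fcer1g on chromosome 1, the tile at 170929001 has 2 near copies. These have at least 90% identity over at least 200 bases, the longest being of 207 bases. Their part in its level was not tested, and copies elsewhere in the genome were not searched for. The tile at 170930001 came to -18.0 points without the female B library, and that at 170932001 lost its call without the female T library (-18.2 points, adjusted p = 0.316) and without the male B library (-21.4 points, adjusted p = 0.0698). An intronic tile at 170924001 was lower in B cells by -22.8 points (adjusted p = 5.46e-05) and came to -20.0 points, just short of the minimum, without the female B library. Farther upstream, 9918 bases from the start, the tile at 170937001 was lower in T cells, at 42.2% and 42.8% against 70.2% and 77.9% in B cells (31.6 points, adjusted p = 2.22e-08). With limma the tiles at 170924001 (adjusted p = 0.189), 170932001 (0.0883) and 170937001 (0.0720) were not called, and with CpGs of at least 10 reads that at 170924001 came to -17.0 points.

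Fcrlb, the neighbour of Fcrla on chromosome 1 and a related intracellular protein, did not share this pattern at its start. Its promoter stood at 82.3% (female) and 81.3% (male) in B cells and at 81.0% and 83.3% in T cells. These values overlapped, with a difference of -0.37 points (adjusted p = 0.952). The sign of this small difference changed when the male B or the male T library was left out. The lone CG of its printed promoter, at base 229, was methylated in every read of the 4 libraries (8, 17, 8 and 13 reads). The tile holding the start (170912001 to 170913000) lay between 77.3% and 79.8% in all 4 libraries. Toward the end of the gene, 59 and 62 CpGs in the exon tiles at 170908001 and 170907001 were low in every library, at 14.5% to 16.7% and 7.74% to 13.7%.

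Both called tiles of Fcrlb lay beyond the end of the gene. At 170898001 to 170899000 (18 CpGs), B cells had 48.1% and 45.9% and T cells 83.4% and 77.8%, a difference of -33.6 points (adjusted p = 1.13e-16). The adjoining tile at 170897001 ran the other way, with 61.4% and 62.3% in B cells and 30.9% and 45.3% in T cells (23.7 points, adjusted p = 4.95e-05). Without the female T library this second tile came to 16.5 points (adjusted p = 0.13), with CpGs of at least 10 reads to 18.3 points, and limma did not call it (adjusted p = 0.183). The windows of Fcrla and Fcrlb overlap and share 14 tested tiles, so their counts are not independent.

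**Figure D1:**
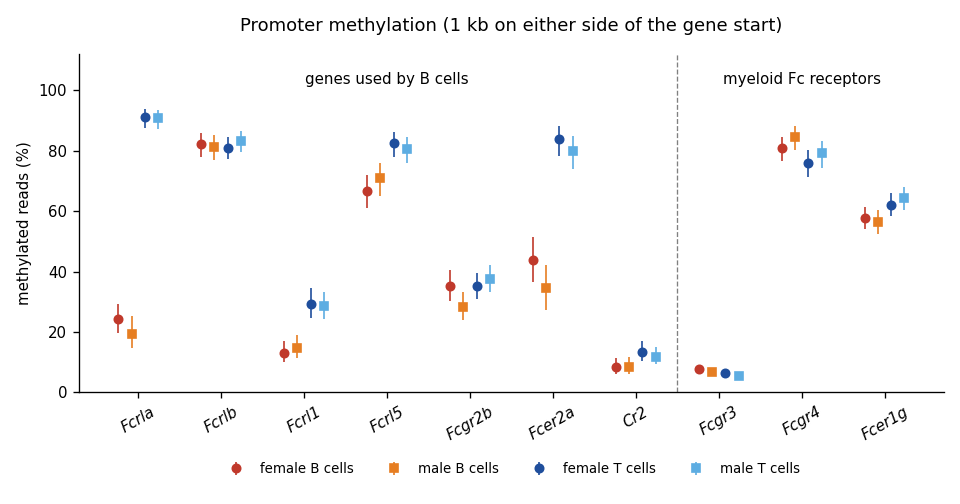
Methylated reads (%) within 1 kb of the gene start at the 10 genes, with 1 point per library (circles female, squares male; red and orange B cells, dark and light blue T cells) and bars for 95% Wilson intervals of counting error. The B and T points are widely apart at Fcrla (24.2% and 19.5% against 91.1% and 90.8%) and Fcer2a, closer at Fcrl1 and Fcrl5, and near each other at the rest.

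Fcer2a encodes CD23, which mature B cells carry. The promoter (chromosome 8, 3693175 to 3695175; 12 CpGs, 151 to 211 reads) had 43.9% [36.5 to 51.6] in female B cells and 34.4% [27.3 to 42.3] in male B cells, against 83.9% [78.3 to 88.2] and 80.0% [73.8 to 85.0] in T cells. The intervals of the cell types did not meet, and the difference of -42.8 points had an adjusted p of 9.53e-20. With 3 libraries the difference stayed between -47.5 and -38.0 points. The promoter call was lost without the female T, male B or male T library, as were most promoter calls of the genome in those fits. In each such fit of 3 libraries, 1 cell type has a single library, which is assumed to vary like the pair of the other, and sex is no longer a term. The tile holding the start (3694001 to 3695000) differed by -43.7 points (adjusted p = 9.27e-11), with 34.1% and 32.9% in B cells and 78.3% and 76.2% in T cells. With a library left out this tile differed by -44.8 to -42.7 points. A further intronic tile, centred 8674 bases into the gene, had 48.2% and 37.4% in B cells and 78.0% and 77.4% in T cells (-34.9 points, adjusted p = 3.75e-12), which limma did not call (adjusted p = 0.0516). The other 2 RefSeq starts of Fcer2a, 3314 and 3785 bases into the gene, differed by -4.73 and -4.53 points and were not called, so the low level lay at the start shared by GENCODE and RefSeq.

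Fcrl1, a surface Fc receptor-like protein of B cells, was low at its start in both cell types and diverged inside the gene. The promoter (chromosome 3, 87375387 to 87377387; 22 CpGs) had 13.1% [10.1 to 16.9] and 14.8% [11.5 to 19] in B cells and 29.4% [24.8 to 34.5] and 28.5% [24.2 to 33.1] in T cells. The difference of -14.9 points passed the adjusted p (3.99e-06) but was under the minimum of 20 points. It did not pass with limma (adjusted p = 0.0543) or with any library left out (0.0844 to 0.248), and within 500 bases of the start the difference was -0.10 points (adjusted p = 0.971). In the tile that holds the start, the libraries lay between 8.56% and 11.6% (-2.46 points, adjusted p = 0.717). From the next tile on, methylation rose with distance faster in T cells. It was 13.9% and 8.66% in B cells against 37.0% and 37.0% in T cells at 1114 bases, then 29.3% and 39.7% against 78.4% and 77.9% at 2114 bases, and 55.7% and 32.5% against 96.4% and 93.7% at 3114 bases. These 3 intronic tiles were called with differences of -25.7, -43.6 and -50.9 points (adjusted p = 1.32e-12, 1.34e-12 and 5.91e-15). The next, at 5114 bases, differed by -23.2 points (adjusted p = 0.00673) and lost its call without the female T (-21.4 points, adjusted p = 0.139), male B (-14.2 points, 0.376) or male T library (-25.0 points, 0.0502). With limma the tiles at 1114 and 5114 bases were not called (adjusted p = 0.0542 and 0.191).

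Farther along Fcrl1 the direction turned and turned back. At 7114, 12114 and 13114 bases from the start, 3 tiles were lower in T cells, the first of them not by limma (adjusted p = 0.0780). The middle one had 97.2% and 96.8% in B cells and 62.4% and 65.6% in T cells (33.0 points, adjusted p = 4.45e-11). The one at 13114 bases, which touches an exon and holds 23 CpGs, had 96.2% and 95.3% against 73.7% and 69.2% (24.3 points, adjusted p = 5.55e-23). Near the end of the gene, at 23114 and 24114 bases, a pair of intronic tiles was lower in B cells by -39.7 and -43.3 points (adjusted p = 1.39e-09 and 1.55e-11). All 9 called tiles of Fcrl1 lay in the gene body, 6 lower in B cells and 3 lower in T cells. The whole window of Fcrl1, over tiles of both signs, differed by -3.16 points.

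Fcrl5, an Fc receptor-like protein of marginal zone and other innate-like B cells that carries activating and inhibitory motifs, held the tile with the largest difference among the 10 genes. Its promoter (chromosome 3, 87434773 to 87436773; 18 CpGs) was methylated at 66.8% [61.0 to 72.1] and 70.8% [65.0 to 76.0] in B cells and 82.4% [77.9 to 86.2] and 80.6% [75.9 to 84.5] in T cells, a difference of -12.7 points that passed the adjusted p (0.00121) but not the minimum. It missed the adjusted p with limma (0.108), with DESeq2 (0.138), with no sex term (0.0823) and with any library left out (0.161 to 0.376). The contrast was inside the gene. In an intronic tile centred 51728 bases from the start (chromosome 3, 87487001 to 87488000; 6 CpGs, 103 to 156 reads), B cells had 13.6% [8.27 to 21.5] and 9.66% [5.84 to 15.6] and T cells 92.6% [86.9 to 95.9] and 92.3% [87.0 to 95.5]. That is a difference of -80.8 points (adjusted p = 3.59e-58).

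A further 3 tiles of Fcrl5 were lower in B cells and none was lower in T cells. An intronic tile at 45728 bases had 62.2% and 61.4% in B cells and 96.6% and 94.2% in T cells (-33.6 points, adjusted p = 7.18e-23). Downstream of the gene, the neighbouring intergenic tiles at 87506001 and 87507001 differed by -28.7 and -28.2 points (adjusted p = 3.36e-08 and 6.29e-10), and limma called neither (adjusted p = 0.0822 and 0.0804). The tile holding the Fcrl5 start was intermediate in all libraries, at 50% and 48.0% in B cells and 60.7% and 64.6% in T cells (-13.7 points, adjusted p = 0.147).

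**Figure D2:**
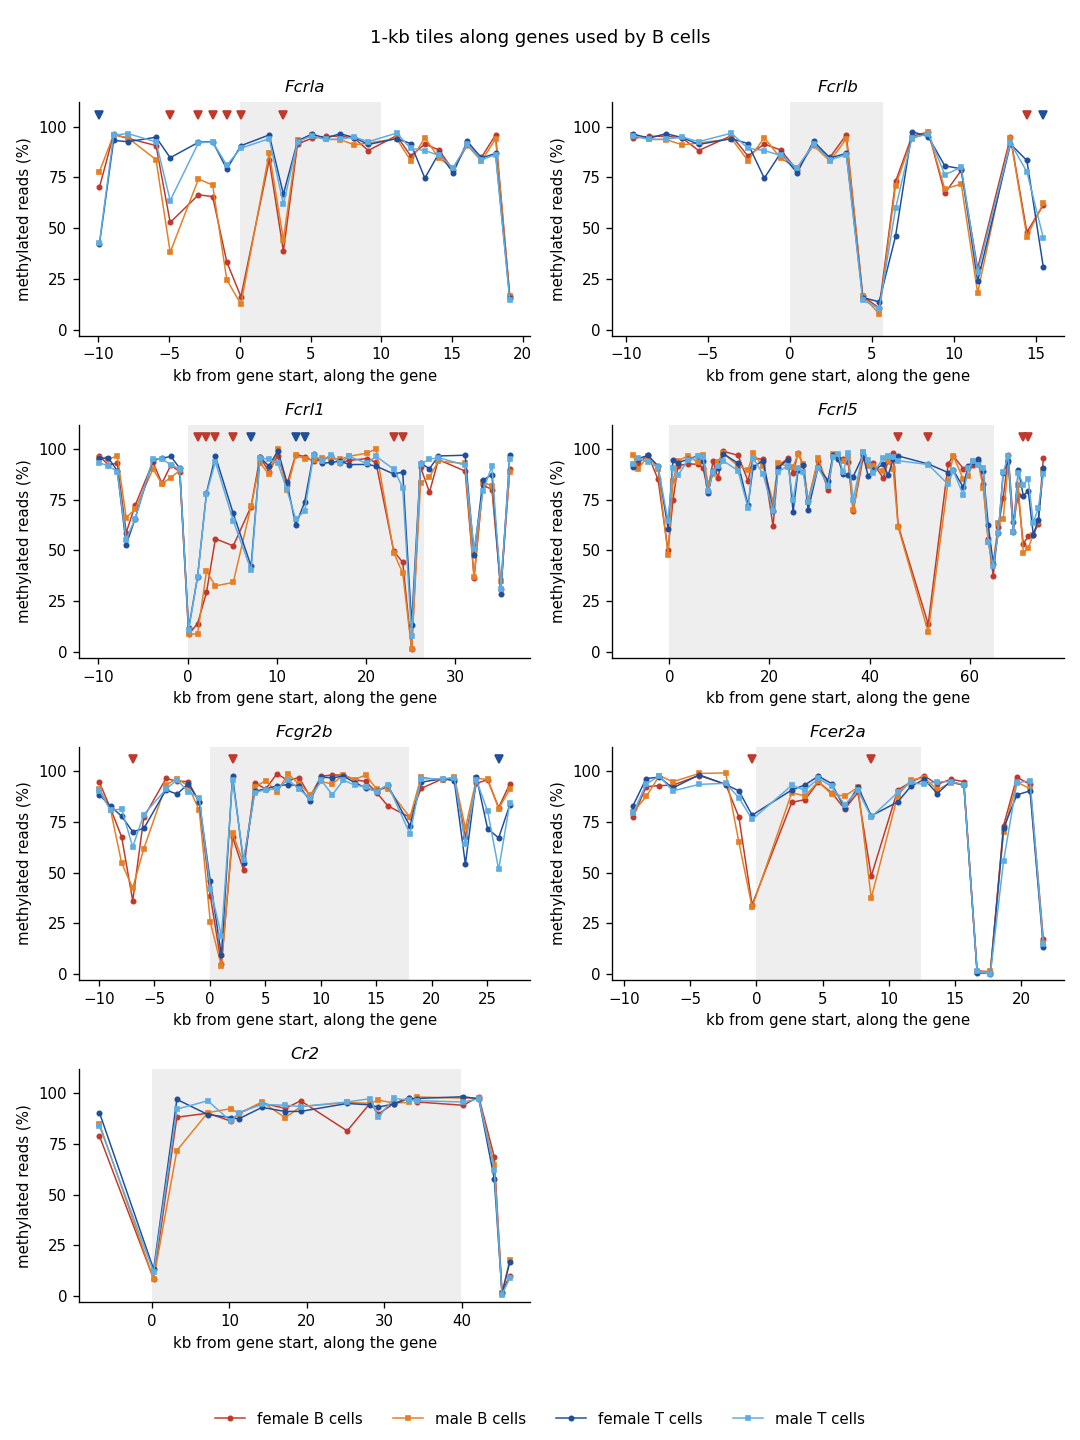
Methylated reads (%) of tested 1-kb tiles against the distance from the gene start in kb along the gene, for the 7 genes used by B cells; grey marks the gene body, lines join the tiles of each library, and triangles mark tiles called lower in B cells (red) or lower in T cells (blue). Called tiles lie at the start for Fcrla and Fcer2a, past the start for Fcrl1, deep in the gene for Fcrl5 (13.6% and 9.66% against 92.6% and 92.3%), and are missing at Cr2.

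Fcgr2b encodes the inhibitory Fcγ receptor, which both B cells and myeloid cells use, and its start did not separate B from T cells by the call rule. The promoter (24 CpGs) had 35.3% and 28.3% in B cells and 35.1% and 37.5% in T cells, a difference of -4.53 points (adjusted p = 0.415) at which the female libraries were alike. This value moved with the region and the libraries, to -13.4 points within 500 bases of the start (adjusted p = 0.0680), to -1.07 with CpGs of at least 10 reads, to -8.01 without the female B library and to -1.05 without the male B library. The tile that holds the start differed by -12.0 points (adjusted p = 0.0767), by -18.4 without the female B library (adjusted p = 0.0186) and by -5.53 without the male B library (adjusted p = 0.761). At the RefSeq start, 476 bases inside the GENCODE gene, the difference was -7.03 points (adjusted p = 0.168). The tile 1046 bases into the gene was low in all libraries, at 4.76% and 3.77% in B cells and 9.20% and 18.9% in T cells. Beyond it, an intronic tile at 2046 bases (170974001 to 170975000; 11 CpGs) was called, with 67.5% and 69.3% in B cells and 97.7% and 95.6% in T cells (-28.2 points, adjusted p = 1.30e-19). Restricted to CpGs of at least 10 reads, this tile differed by -19.7 points. Upstream, a tile 6954 bases before the start that touches an exon of Gm10522 was lower in B cells by -27.2 points (adjusted p = 1.08e-05). Downstream, the tile at 170950001 was lower in T cells, at 67.1% and 51.6% against 82.1% and 81.6% (22.5 points, adjusted p = 9.23e-05), a value that fell to 14.7 points (adjusted p = 0.0993) without the male T library. With limma neither of these 2 tiles was called (adjusted p = 0.134 and 0.139).

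Cr2, the gene of the complement receptors CD21 and CD35 that lower the threshold for B cell activation by complement-coated antigen, had a low start in both cell types. Its promoter (22 CpGs, 355 to 490 reads) had 8.48% and 8.45% in B cells and 13.2% and 11.8% in T cells, which is -4.08 points with an adjusted p of 0.0904. None of its 20 tested tiles was called by edgeR or limma. An unadjusted p under 0.05 was found at 2 of them, against 271328 of 1530528 tiles in the genome. CpGs are sparse here, at 5.21 per kb of window, and 58 tiles held a CpG read in every library, so most tiles were under the minimum of 5 CpGs. Among those, and chosen after its values were seen, a tile centred 1785 bases before the start with 3 CpGs and 44 to 60 reads had 45.5% and 50% in B cells and 92.6% and 91.7% in T cells (-44.4 points, adjusted p = 1.49e-07 in the fit with no minimum).

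Among the myeloid genes, Fcgr3, which encodes the low-affinity activating receptor FcγRIII, carried strong differences in both directions inside the gene. The tile centred 4434 bases from the GENCODE start (chromosome 1, 171060001 to 171061000; intron, 18 CpGs) had levels of 81.4% [76.9 to 85.2] and 78.4% [73.3 to 82.8] in B cells, against 21.3% [17.2 to 26.1] and 16.0% [12.7 to 20.1] in T cells. The difference was 61.2 points (adjusted p = 4.05e-52), here with T cells low. Over the 9 CG of the printed Fcgr3 intron sequence, no methylated read was found in T cells, 0 of 187 in females and 0 of 232 in males, which by the same limit of 3 reads allows up to 1.60% and 1.29% (Wilson upper limits 2.01% and 1.63%). The methylated T cell reads of this tile thus all lay at its other 9 CpGs. B cells had 131 of 181 and 113 of 167 methylated reads there, and their single CpGs ranged from 26.7% to 100%. Neither resting B cells nor naive T cells are known as main users of Fcgr3.

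**Figure D3:**
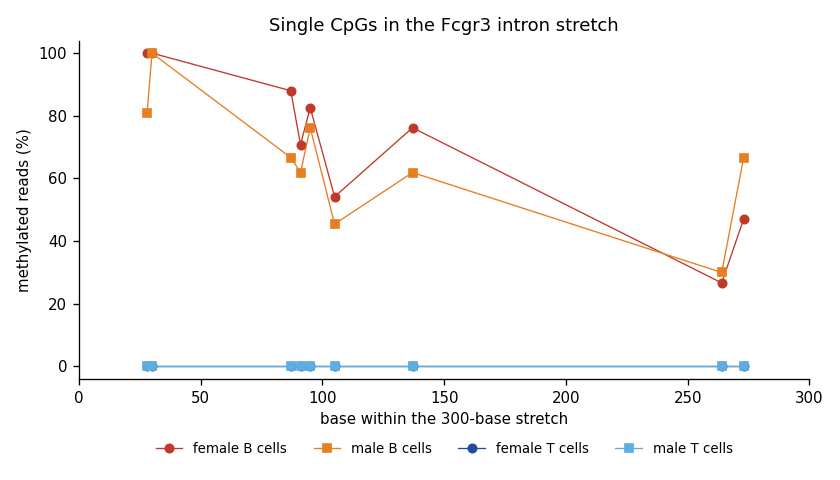
Methylated reads (%) of the 9 single CpGs by base within the 300-base stretch of the Fcgr3 intron, with 1 line per library (circles female, squares male; red and orange B cells, dark and light blue T cells). Both T lines stay at 0% while the B lines range from 26.7% to 100%.

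A tile touching an exon of Fcgr3 at 6434 bases also was lower in T cells, with 88.2% and 83.6% in B cells and 36.4% and 29.5% in T cells (52.9 points, adjusted p = 3.66e-25). At the far end of the gene (171051001 to 171052000, 13434 bases from the start, touching an exon) B cells were the lower ones, at 48.1% and 48.8% against 88.7% and 86.3% (-39.1 points, adjusted p = 4.93e-23). The RefSeq starts of Fcgr3, at 171059394 and 171059403, lie 5541 and 5532 bases inside the GENCODE gene, between the tiles lower in T cells. Within 1 kb of these starts the levels were 74.8% [70.5 to 78.7] and 71.9% [66.5 to 76.8] in B cells and 44.9% [39.7 to 50.3] and 29.0% [24.2 to 34.4] in T cells, a difference of 36.4 points (adjusted p = 3.52e-11). The 4 CG in the 300 bases printed for the RefSeq start were themselves between 0% and 40.0% in every library, with 20 of 94 and 8 of 59 reads methylated in B cells and 15 of 65 and 11 of 73 in T cells. The contrast around the RefSeq start thus lay outside the printed promoter.

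Values at the GENCODE start of Fcgr3 are uncertain. The promoter there was low in all libraries (7.82% and 6.87% in B cells, 6.34% and 5.40% in T cells; 1.47 points, adjusted p = 0.414) and differed from the other 9 in base composition, with 68.3% G and C and an observed to expected CpG ratio of 0.879 against 0.125 to 0.293. The 4 tiles within 2 kb of it had 40.2 to 53.6 reads per CpG, while the 12 other tiles of the gene body had 14.2 to 20.8. The start tile has 2 near copies elsewhere in the same stretch of chromosome 1, the longest of 1007 bases, with identities of up to 98.8%, and neighbouring tiles have copies of up to 1036 bases. Reads of such copies can be counted at the wrong copy, and their part in these levels was not tested. The share of reference CpGs read in every library was 71.4% in the Fcgr3 window and 89.7% to 98.1% in the others.

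Fcgr4 and Fcer1g had no called tile by edgeR or limma. Fcgr4 encodes the activating receptor FcγRIV of macrophages and neutrophils, and its promoter was highly methylated in all libraries, at 80.8% and 84.6% in B cells and 76.0% and 79.1% in T cells (5.18 points, adjusted p = 0.195). Of its 31 tested tiles, 3 had an unadjusted p under 0.05, against 271328 of 1530528 tiles in the genome. Downstream of the gene, tiles centred 14581, 18581 and 19581 bases from the start were almost unmethylated in every library, at most 1.27%. Fcer1g encodes the γ chain through which the activating receptors signal, and its promoter was intermediate, at 57.8% and 56.5% in B cells and 62.2% and 64.3% in T cells (-6.06 points, adjusted p = 0.265). The tile that holds the Fcer1g start (171234001 to 171235000; 22 CpGs) passed the adjusted p (0.0198) at -13.0 points, with 38.2% and 39.9% in B cells and 52.8% and 51.3% in T cells. It did not pass with limma (adjusted p = 0.447) or with any library left out (0.0831 to 0.233). An intronic tile 1864 bases into Fcer1g ran the other way by 14.4 points (adjusted p = 0.0129). Of the 23 tested tiles, 6 had an unadjusted p under 0.05, against 271328 of 1530528 in the genome. The 7 CG of the printed Fcer1g promoter were methylated in 27 of 110 and 13 of 96 reads in B cells and in 34 of 93 and 30 of 92 reads in T cells.

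**Figure D4:**
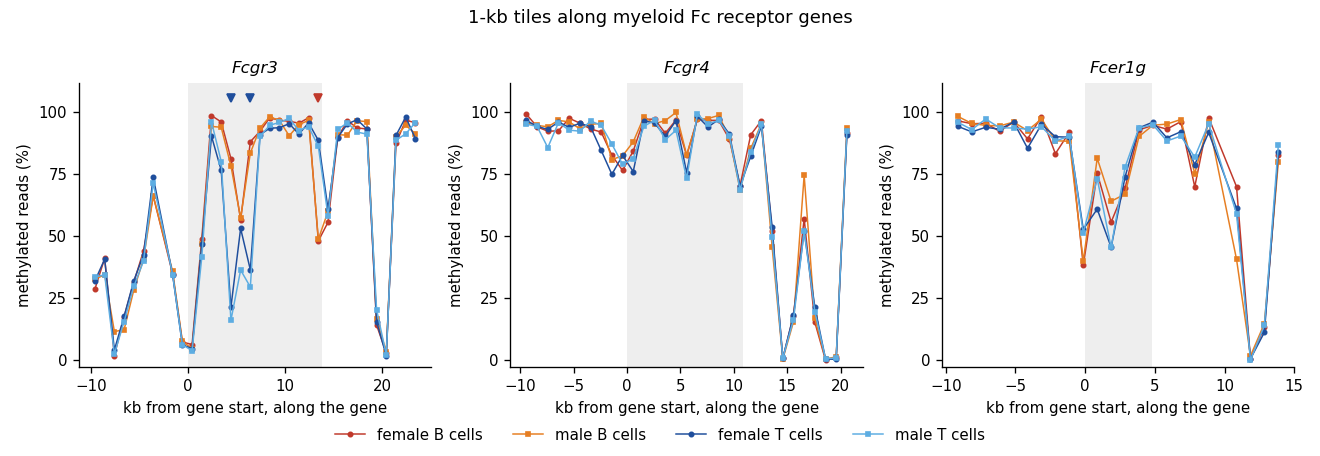
Methylated reads (%) of tested 1-kb tiles against the distance from the gene start in kb along the gene, for the 3 myeloid Fc receptor genes; grey marks the gene body and triangles mark tiles called lower in B cells (red) or lower in T cells (blue). All 3 called tiles are in Fcgr3, where T cells fall to 21.3% and 16.0%, and the 4 libraries run close together along Fcgr4 and Fcer1g.

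Counted over promoters, 2 of the 10 genes were called, both lower in B cells and both among the 7 B cell genes. Of 20501 promoters tested in the genome, 0.41% were called lower in B cells and 0.956% lower in T cells. A further 2 B cell genes (Fcrl1 and Fcrl5) passed the adjusted p alone. In all 4 of the 10 genes passed it, against 4081 of 20501 promoters in the genome. Fcrl1 and Fcrl5 did not pass with limma. Neither passed with any library left out, but far fewer promoters of the genome passed in those fits. Of the 3 myeloid genes, none was called by edgeR or limma and none had an unadjusted p under 0.05, which 6291 of 20501 promoters had. The median difference was -12.7 points over the 7 B cell genes, 1.47 points over the 3 myeloid genes and 0.970 points over all promoters. The myeloid median is the value at the uncertain GENCODE start of Fcgr3, and with RefSeq starts it was 5.18 points. In both sexes, 5 of 7 B cell genes and 1 of 3 myeloid genes had a lower level in B than in T cells. The share over all promoters was not computed for this count. With 1 kb on either side of every RefSeq start, where 0.625% of promoters were called lower in B cells and 1.48% lower in T cells, 3 of the 10 genes were called: Fcrla and Fcer2a lower in B cells and Fcgr3 lower in T cells.

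Over 1-kb tiles, the B cell genes held more tiles lower in B cells than the genome did. Of 304 tested tiles, 30 were called, 22 lower in B cells and 8 lower in T cells. At the B cell genes, 21 of 217 tiles (9.68%) were lower in B cells and 6 (2.76%) were lower in T cells, and at the myeloid genes 1 of 87 (1.15%) and 2 (2.30%). Over all tiles of the genome the shares were 0.812% lower in B cells and 2.36% lower in T cells. The share lower in B cells was thus above the background at the B cell genes, while the other 3 shares were near theirs. The sign of the difference was the same in both sexes at all 30 tiles, and 25 reached 20 points in each sex. The call rule favours such agreement, since it uses the mean of the same differences. The share over called tiles of the genome is not given here. With limma, 18 of the 30 were called, and the share lower in B cells at the B cell genes was 5.99% against a background of 0.444%.

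**Figure D5:**
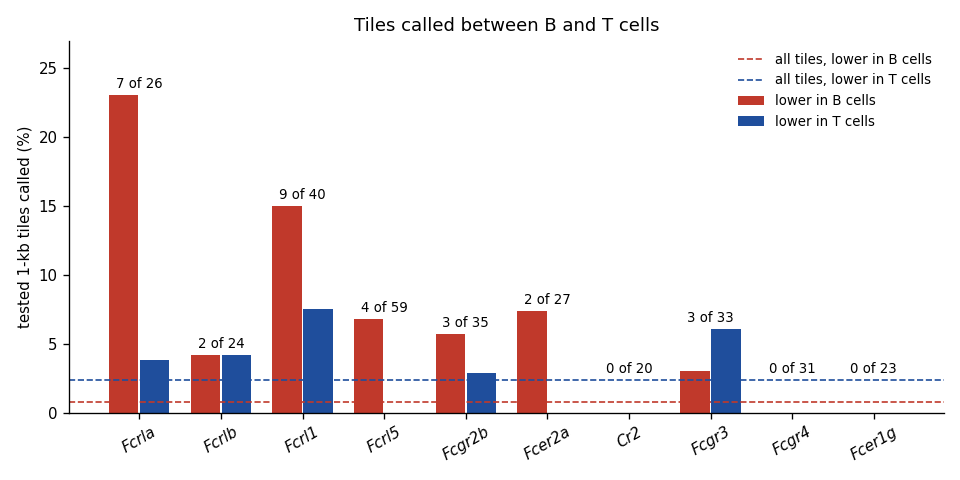
Percentage of tested 1-kb tiles called lower in B cells (red bars) and lower in T cells (blue bars) for each gene, with the number called of the number tested above; dashed lines mark the shares over all tiles of the genome, 0.812% and 2.36%. Fcrla has 7 of 26 tiles called and Fcrl1 9 of 40, while Cr2, Fcgr4 and Fcer1g have none.

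Of the 30 called tiles, 18 had their centre in the body of the member gene they were counted under. In all 146 tested tiles did (12.3% called), against 9.87% called over all 304 tested tiles of these genes. The intron and exon counts below instead take in every annotated gene, so they do not add up to these numbers. Within 5 kb of its own start, Fcrla had 6 of 8 tested tiles called and Fcrl1 3 of 8, while Fcrlb had 0 of 9 and Fcrl5 0 of 6. Fcgr2b and Fcgr3 each had 1 of 9, Fcer2a 1 of 7, Cr2 0 of 2, and Fcgr4 and Fcer1g each 0 of 10. Shares over the genome were not computed for tiles near starts or in gene bodies. Tiles lower in B cells fell in introns in 10 cases, between genes in 7 and on an exon in 5, and tiles lower in T cells in 3, 3 and 2 cases. The tested tiles of these 10 genes numbered 85 in introns (15.3% called), 107 between genes (9.35%) and the rest on an exon (6.25%), and these shares were not tested against each other. Called tiles had a median of 26.6% of bases masked as repeats, and tested tiles that were not called had 25.2%. By single CpGs, Fcrla had 22 (6.13%) that were at least 50 points lower in B cells and 3 (0.836%) lower in T cells, Fcrl1 had 20 (5.32%) and 12 (3.19%), and Fcgr3 had 4 (0.605%) and 16 (2.42%). Shares lower in B cells were 3.59% at Fcgr2b, 2.46% at Fcer2a, 2.44% at Fcrl5 and 1.99% at Fcrlb, and Cr2, Fcgr4 and Fcer1g had at most 1 such CpG in either direction. Over the genome, 0.343% of CpGs were that much lower in B cells and 0.854% in T cells.

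Averaged over gene bodies with 10 kb on either side, no gene was called. In the genome, 2.88% of such windows differed by at least 10 points with an adjusted p under 0.05. The 10 windows ranged from -3.20 points at Fcrl5 (80.3% and 80.5% in B cells, 83.3% and 83.9% in T cells; adjusted p = 0.00187) to 4.26 points at Fcgr3 (33.8% and 35.8% against 30.2% and 30.8%; adjusted p = 0.00111). Fcrl1 (adjusted p = 0.0334) was the third window that passed the adjusted p, and limma called none. In the genome 8594 of 21611 windows passed the adjusted p and 10108 had an unadjusted p under 0.05. The 3 of 10 windows here, by either measure, were a smaller share. The Fcgr3 window holds the promoter at the uncertain GENCODE start and also, from 171071312 on, a near copy of the sequence around that start. That promoter gave 7939 of the window's 20109 reads in female B cells and 9526 of 22851 in female T cells. The part of this promoter and of the near copy in the window level was not tested. The windows of Fcrl1, Fcer2a, Cr2 and Fcer1g also hold other coding genes, among them Cd5l, Fcor, Cr1l and Apoa2.

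Of the 10 genes, 6 share 327.093 kb of chromosome 1 (170907273 to 171234365) in the order Fcrlb, Fcrla, Fcgr2b, Fcgr4, Fcgr3 and Fcer1g, a stretch that holds 13 coding genes in all. Neighbours in this order differed from each other. The start of Fcrla was low in B cells alone while that of Fcrlb beside it was at 81.0% to 83.3% in all libraries, and Fcgr3 was low in T cells in the middle of its body while Fcgr4 beside it had no called tile.

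No difference between the sexes was detected at these genes. Of the 304 tested tiles, none was called between females and males by edgeR or limma, 17 had an unadjusted p under 0.05, and the lowest adjusted p was 0.371. In the genome, 0.0866% of tiles were called by sex and 78545 of 1530528 had an unadjusted p under 0.05. Female minus male differences at the 10 promoters around GENCODE starts ran from -3.48 points (Fcgr4) to 6.68 points (Fcer2a). At the RefSeq starts of Fcgr3 the difference was 9.41 points, and promoters at RefSeq starts were not tested by sex. Over the 304 tested tiles it ran from -9.17 to 17.9 points. With a term for a B minus T difference that depends on sex in place of the sex term, no tile was called by edgeR or limma. Of the 304 tiles, 12 had an unadjusted p under 0.05, against 66748 of 1530528 in the genome, and the lowest adjusted p was 0.872. Over the genome, 0.000849% of tiles were called by edgeR and none by limma. With 1 library per sex and cell type, these counts do not show that the difference was alike in females and males.

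Other genes of these pathways, listed by function, were read from the same tests. Of 10 other Fc receptor genes, 1 promoter was called: Fcmr, the IgM Fc receptor of B cells, had 41.7% and 29.1% in B cells and 81.4% and 84.0% in T cells (-47.3 points, adjusted p = 3.26e-34). No promoter of 10 complement receptor and regulator genes was called by edgeR or limma. An unadjusted p under 0.05 was found at 5 of them, against 6291 of 20501 promoters in the genome. Of 272 tiles of this list, 7 (2.57%) were called lower in B cells and 25 (9.19%) lower in T cells, against 0.812% and 2.36% over the genome. The other Fc receptor genes had 8 (3.45%) and 7 (3.02%) of 232 tiles. Itgb2, the β2 integrin chain of complement receptors 3 and 4, had a window 17.0 points lower in T cells (80.7% and 81.7% in B cells, 64.5% and 63.8% in T cells).

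Of 7 signalling partners of these receptors, 2 promoters were lower in B cells and 1 was lower in T cells. By tiles, 45 of 444 (10.1%) were lower in B cells and 11 (2.48%) in T cells. Blnk, the adaptor below the B cell receptor, had 12.8% and 13.9% in B cells and 57.1% and 56.1% in T cells (-43.2 points, adjusted p = 3.95e-36). The Blnk window was called as well, lower in B cells by -12.4 points (adjusted p = 1.23e-22). Btk, a kinase of the same pathway on the X chromosome, had 56.1% and 18.2% in female and male B cells and 67.4% and 58.1% in T cells (-25.6 points, adjusted p = 2.16e-05), with females above males by 23.6 points on average. Ptpn6, the phosphatase SHP-1 that inhibitory Fc receptors recruit, was lower in T cells, at 22.0% and 22.2% against 50.1% and 50.3% (28.1 points, adjusted p = 6.45e-14). Median promoter differences were 2.71, 0.717 and -1.49 points for the other Fc receptors, the complement genes and the partners. These 4 promoter calls fell to 2 without the male B library and to 0 without the female T or the male T library, while calls over all promoters fell from 280 to 76, 36 and 40. With a library left out the difference was -53.6 to -41.0 points at Fcmr, -43.8 to -42.6 at Blnk and 28.0 to 28.3 at Ptpn6, but -44.6 to -6.67 at Btk. Btk was not called with limma, DESeq2 or no sex term, and within 500 bases of their starts Ptpn6 differed by 8.66 points and Blnk by -20.1.

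Fcrla had the member promoter that differed most, and the promoters most like it over the 4 libraries, by Euclidean distance between levels, were those of Ms4a1 (CD20; 13.9 points), Igll1 (the surrogate light chain λ5; 18.7), Cd74 (the invariant chain; 21.9), Ly86 (22.4) and Flrt1 (23.2). Ms4a1 had 12.7% and 13.8% in B cells and 95.2% and 94.4% in T cells. Flrt1, the fifth, had 31.1% and 41.3% in B cells and 90.7% and 87.5% in T cells.

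Short motifs of B cell and myeloid factors were searched on both strands of the 300-base RefSeq promoters. GAGGAA, the core bound by PU.1, occurred at Fcrla, Fcrlb, Fcrl1, Fcgr3 and Fcgr4, that is in 5 of 10 genes against 28.2% of 32619 promoters. CCCNNGGG, the core bound by EBF1, occurred at Fcgr3 alone (13.8% of all promoters). CAGGTG occurred at Fcrla, Fcrlb and Cr2 (20.3%), CAGCTG at Fcer1g (16.4%), and the octamer ATGCAAAT at none of the 10 (1.75%). Promoters of Fcrla and Fcrlb thus held the same listed motifs and stood at opposite levels in B cells. A match is a string of letters and does not show that a factor was bound.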

How the data were processed

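The authors trimmed reads with Trim Galore, checked them with FastQC and aligned them to mm10 with Bismark 0.13.1, as the submitters' processing notes name these tools, and deposited for each of the 4 groups a methylation level per CpG, as a fraction rounded up to 3 decimals, beside the read count of that CpG, with no CpG under 5 reads. Whether a deposited set holds 1 or both samples of its group was not given in the sources used here. Methylated counts were recovered from the deposited fractions and reads, and 100% came out whole.

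The 10 genes and all lists were chosen with earlier results of these data known. Starts and gene bodies came from GENCODE M21 on GRCm38, and further starts and sequences from RefSeq (GRCm38.p6). Methylated and unmethylated reads were summed over CpGs read in all 4 libraries, in promoters (1 kb on either side), 1-kb tiles and gene windows (10 kb on either side), with at least 5 CpGs and 20 reads per library. Every region of a kind in the genome was tested with edgeR 4.0.16 (quasi-likelihood, R 4.3.3), with terms for library, cell type and sex (for a dependence on sex, cell type and the contrast of female B and male T against female T and male B), a common dispersion (promoters 0.0109, windows 0.00169, tiles 0.00733, from 20000 regions for tiles), 1 residual degree of freedom and Benjamini-Hochberg adjustment over all regions. Calls needed an adjusted p under 0.05 and 20 points (10 for windows). The p-values rest on 2 libraries per cell type. The prior degrees of freedom were infinite for promoters and tiles and 77.0 for windows. At promoters and tiles the spread behind a p-value thus came from all regions together and not from the region's own libraries. At windows it came mostly from all regions. This spread may be technical. Named were all 10 genes, their start tiles and called tiles, listed genes with a called promoter, and the 5 promoters nearest to the most different one. Alternatives were limma 3.58.1 (pseudocount 0.5 reads), DESeq2 1.42.0, no sex term, no minimum difference, no filter, CpGs of at least 10 reads, other region sizes and each library left out (terms for library and for cell type or sex). Near copies were searched with blastn 2.17.0 for called tiles, start tiles and tiles near the GENCODE start of Fcgr3. The search covered only the stretch from Fcrlb to Fcer1g and that of Fcrl1 and Fcrl5. Fcer2a, Cr2 and the rest of the genome were not searched. A few items are not reported here.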

Additional observations from a re-analysis of the deposited data

How the results depend on the processing

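The 2 called member promoters became 4 with no minimum difference, where 4081 of 20501 promoters in the genome passed. With a library left out Fcrla kept its call each time, and Fcer2a lost it without the female T, male B or male T library. Most promoter calls of the genome were also lost in those 3 fits, and the Fcer2a difference stayed between -47.5 and -38.0 points. The 4 called promoters of the other listed genes became 9 with no minimum and 0 to 4 with a library left out (0 without the female T or male T library, 2 without the male B library). Member windows rose from 0 to 3 with no minimum, where 8594 of 21611 windows in the genome passed. The 30 called member tiles became 56 with no minimum, 18 with limma, 17 with 2-kb tiles, 18 in gene bodies alone and 29 to 33 with a library left out. Tiles lower in B cells at the B cell genes (21) became 34 with no minimum, 13 with limma, 13 with CpGs of at least 10 reads, 13 with 2-kb tiles, 12 in gene bodies alone and 19 to 23 with a library left out. Tiles lower in T cells there (6) became 13 with no minimum, 2 with limma, 2 with 2-kb tiles, 3 in gene bodies alone and 5 to 8 with a library left out. The 3 called tiles of the myeloid genes became 9 with no minimum and 3 to 4 with a library left out. With a minimum of 10 reads, 22 of the 30 called tiles could be tested and 19 were called. No minimum difference, a smaller number of tiles (2-kb tiles, gene bodies) and fewer CpGs change these counts by construction, and for limma the cause was not tested. Counts for sex were 0 with no minimum and with limma, and those for its interplay with cell type 0 with no minimum. With each library left out (for sex) and with limma (for the interplay) no tile of the genome was called, so those counts of 0 say nothing about these genes. Other alternatives were not run for them. The median promoter difference of the B cell genes minus that of the myeloid genes (-14.2 points) ranged from -17.9 (RefSeq starts) to -11.2 (males alone). Of 99 promoter values under alternatives, 94 kept their direction and stayed called or not called, as did 269 of 296 tile values. Under limma, DESeq2, no sex term and no filter the difference is the same number as before, so its direction could not change. A region under 20 points could not become called there either. These counts thus hold many outcomes fixed in advance. The sign turned for 3 regions near 0 when a library was left out: the Fcrlb promoter (-1.49 to 0.761 points), the Fcrlb start tile (-0.657 to 1.89) and the Fcgr4 start tile (-4.26 to 1.64). No paired analysis was possible because the groups share no replicate numbers and each has 1 set of calls. The sex term compares B with T cells within each sex, and without it the called member promoters numbered 2 and the tiles 30, as with it. Depth limits single CpGs most, where 10 to 20 reads leave wide intervals, and few CpGs limit Cr2.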

Other observations

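Tiles with fewer than 5 CpGs were not tested above, and the values here were chosen after they were seen, from a fit with no minimum. Beside the start tile of Fcer2a, the tile at 3693001 (4 CpGs, 55 to 77 reads), inside the gene, had 50.8% and 38.2% in female and male B cells and 92.2% and 85.3% in T cells (-44.3 points, adjusted p = 2.48e-09). The low level in B cells thus ran on past the start. Most of this tile lies in the promoter called above (3693175 to 3695175), so it is not a separate result. A tile 5326 bases before the Fcer2a start differed by -27.9 points (adjusted p = 2.93e-05). Near the end of Fcrl1, the tile at 87398001 (2 CpGs, 22 to 30 reads) adjoined the called pair and differed by -48.6 points (adjusted p = 0.000145). In Fcrl5 a tile centred 54728 bases from the start differed by -26.3 points (adjusted p = 0.0151). Inside Fcrla, next to the start tile, 3 CpGs at 170926001 were lower in T cells, with 72.1% and 68.4% in B cells and 51.7% and 39.3% in T cells (24.8 points, adjusted p = 0.0347). These values have few CpGs behind them, and the Fcrla tile overlaps the Fcrla promoter called above.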
